A study of Homo sapiens with 6 samples.

Results

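The genes described here are 47 components of the actin cytoskeleton and its contractile apparatus, among 56505 rows of a gene count table. They were listed by name: the actins, their crosslinkers, calponins, tropomyosins, myosin II chains, filamins, adhesion adaptors and regulators. Each of the 47 names had a row. The groups were 3 libraries from cells carrying a single short hairpin RNA against cytokeratin 5 (titled shCK5-22, here shCK5) and 3 from cells carrying a control hairpin (shControl). All cells were, per the labels, MDA-MB-468, an established human breast cancer line of the basal-like, triple-negative kind, grown with serum, with no other treatment stated. The hairpins came from pLK0 constructs. Cytokeratin 5, the product of KRT5, is an intermediate filament protein of basal epithelial cells. The libraries held 68810882 to 83594772 counts. The labels do not state whether replicates came from separate cultures. The p-values therefore reflect variation among the 6 libraries alone, part or all of which may be technical.

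Some genes go against the labelled identity. RB1 and SMAD4, which are deleted in MDA-MB-468, averaged 101.0 ± 2.16 and 16.9 ± 0.547 CPM (counts scaled to library size) in shCK5, against 2.00 ± 0.136 and 0.235 ± 0.138 CPM in shControl (SD, n = 3 each). KRT5 itself was at 16.4 ± 0.845 CPM in shCK5 and 2044 ± 23.3 CPM in shControl, a log2 fold change of -6.96 (SE 0.0369, adjusted p = 1.15e-34). Of 10 basal epithelial markers, 8 were lower and 2 higher in the libraries labelled shCK5, against 41.7% and 40.9% of all genes tested. The 8 include KRT5, the target of the hairpin. Differences between the groups therefore cannot be told apart from a difference in the cells themselves. In bulk RNA, fewer cells expressing a gene and less RNA per cell cannot be told apart either. In what follows, rose and fell mean higher and lower in shCK5 than in shControl.

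Actin filaments are built from actin monomers, which profilin supplies, and are cut by cofilin. They are stabilised by tropomyosin, bundled by alpha-actinin, fascin and plastin, and pulled by non-muscle myosin II. Filaments end on focal adhesions through talin, vinculin, paxillin and zyxin, and on the membrane through ezrin, radixin and moesin. RHOA activates myosin and filament assembly. Free actin monomers hold back the cofactors of serum response factor (SRF), a transcription factor that binds CArG boxes and drives many actin and contractile genes. Smooth muscle and myoepithelial cells carry additional members, such as ACTA2, ACTG2, CNN1 and TAGLN.

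Of 41 members with a promoter in the RefSeq table (GRCh38.p14, 250 bases before to 50 after an annotated start), 8 held a CArG box, which is 19.5%, against 1.6% of all 27305 genes with a promoter there. A box was an exact match of 10 bases: CC, then only A or T, then GG. Looser forms were not counted, so a member without a match may still hold one. A gene counted if any of its listed promoters held a box, and the number of promoters differed between genes. The search pattern covers both strands at once, though a single box need not read the same on both. No other motif was searched. Of the 8, ACTG1, ACTN1, CNN2, FLNA, MYLK, SRF and TPM4, 7 in all, were higher in shCK5, as were 71.1% of all tested members. Under library-size scaling the sign of CNN2 turned and ACTG1 no longer passed. ACTG2 was lower, a direction fixed by the filter on low counts, which it passed only through shControl. ACTB, TAGLN, MYL9, VIL1, FSCN1 and PFN2 had no entry. The sequences below show the boxes, in capitals, of 3 members that rose and of ACTG2, the exception. They run 5′ to 3′ on the gene's strand. ACTG1 is at chr17:81512864-81512913 on the minus strand, the ACTG2 windows at chr2:73892878-73892927 and chr2:73892915-73892964 on the plus strand, SRF at chr6:43171219-43171268 on the plus strand and TPM4 at chr19:16067345-16067394 on the plus strand.
ACTG1: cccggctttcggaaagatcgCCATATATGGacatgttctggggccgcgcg
ACTG2, far box: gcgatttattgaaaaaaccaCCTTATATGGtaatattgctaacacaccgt
ACTG2, near box: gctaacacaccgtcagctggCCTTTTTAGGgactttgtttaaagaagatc
SRF, both boxes: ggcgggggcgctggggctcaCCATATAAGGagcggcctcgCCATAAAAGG
TPM4: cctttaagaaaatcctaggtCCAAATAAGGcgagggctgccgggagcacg
The boxes begin 94 bases before the start site in ACTG1, 110 and 73 in ACTG2, 30 and 10 in SRF and 173 in TPM4. A match is a description of the letters, not evidence of a bound site.

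After a filter on low counts, 45 of the 47 members could be tested. CFL1 and MYL9 could not. CFL1, which encodes the main non-muscle cofilin, had 6, 5 and 6 counts in shCK5 and 11, 5 and 0 counts in shControl, and MYL9, a regulatory light chain of myosin, was listed at 0 in every library. Other actin genes that most cells use, ARPC1A, ARPC1B, ARPC4 and TMSB10, were also listed at 0, and these rows were not read as lack of expression. In GENCODE v29, 19% of the exon bases of CFL1 are shared with SNX32 or MUS81 on the other strand. The 8 rows named as CFL1 pseudogenes held 169 counts over the 6 libraries, against 33 for CFL1. The part of such overlaps or pseudogenes in the low counts of CFL1 was not tested.

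All 45 tested members passed edgeR's quasi-likelihood test at an adjusted p of 0.05, where 82.7% of 19567 genes did. Among genes with a mean of at least 10 CPM, to which 41 members belong, 91.6% passed, so the number of calls is near what genes of such levels gave. There were 32 members that rose, or 71.1% of those tested, against 40.9% of all genes tested. There were 13 that fell, or 28.9%, against 41.7%. Among genes of at least 10 CPM the shares were 75.6% of members against 52.4% of genes for rises, and 24.4% against 39.2% for falls. At least 2-fold, 11 members rose (24.4%, against 19.6% of all genes) and 9 fell (20%, against 24.4%). The 3 values of each group did not overlap in any of the 45, against 84.2% of all genes. The median log2 fold change was 0.39 in the members and -0.02 in all genes, and 0.15 in all genes of at least 10 CPM. ACTG2, CNN1 and VIL1 passed the filter only through shControl, so they had to be lower in shCK5, and their calls and lack of overlap support nothing. The other 42 passed through both groups. Scaling by library size alone moved the median of all genes to -0.16 and that of the members to 0.25.

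**Figure D1:**
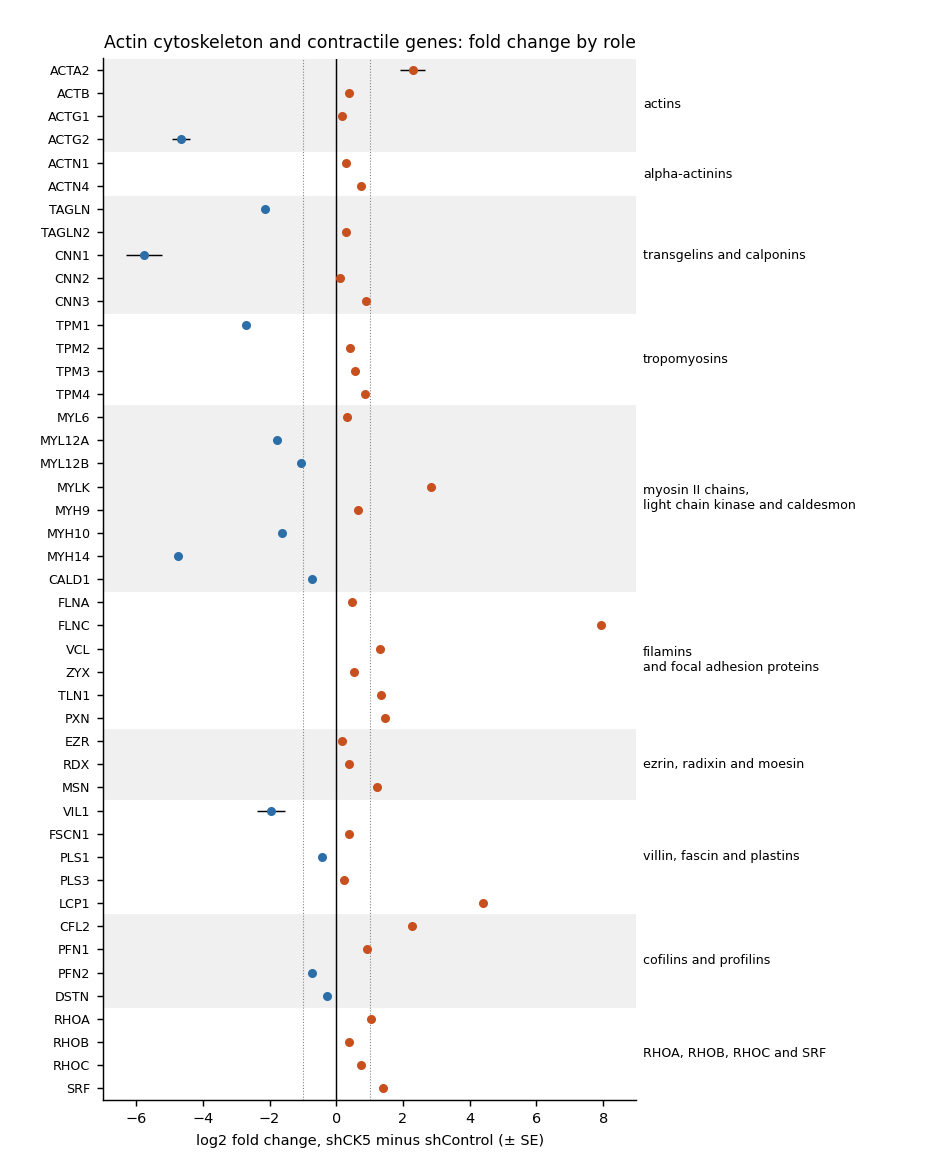
Log2 fold change of each tested member (points, with the standard error of the fit as bars), shCK5 minus shControl, grouped by role. Orange points were higher and blue points lower in shCK5, dotted lines mark 2-fold, and all 6 filamin and adhesion members lie to the right of 0 whereas 5 of 8 myosin members lie to the left.

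The members together held 3.30% to 3.37% of all counts in shCK5 and 2.64% to 2.78% in shControl. ACTB, ACTG1 and FLNA alone made up 1.61% to 1.68% of counts in shCK5 and 1.37% to 1.46% in shControl. These shares do not separate the actins from FLNA. In the fit, ACTB and ACTG1 had small log2 fold changes (0.39 and 0.18), and ACTG1 did not pass with library-size scaling. The large fold changes lay in less abundant members.

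Beta-actin, encoded by ACTB, had 8224, 8557 and 8329 CPM in shCK5, against 6284, 6628 and 6227 CPM in shControl. It was 1.31-fold higher (log2 fold change 0.39, SE 0.0269, adjusted p = 1.01e-12). Gamma-actin, encoded by ACTG1, had 3824, 3967 and 3857 CPM in shCK5 and 3390, 3514 and 3358 CPM in shControl, with a log2 fold change of 0.18 (SE 0.0256, adjusted p = 4.92e-07). With library-size scaling the value for ACTG1 was 0.05 and did not pass (adjusted p = 0.11). Per length, ACTB made up 64.7% ± 0.0453 of the actin transcripts in shCK5 and 61.3% ± 0.234 in shControl (SD, n = 3 each), with nearly all of the rest in ACTG1. Rows named as pseudogenes of ACTB and ACTG1 held 0.0151% and 0.0318% as many counts as the genes themselves.

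The smooth muscle actins were near the limit of detection. ACTG2, the enteric smooth muscle actin, had 0.0756, 0.105 and 0.111 CPM in shCK5, against 2.54, 2.73 and 2.17 CPM in shControl. The mean was 25.3-fold lower in shCK5 (log2 fold change -4.66, SE 0.269). The gene passed the filter only through shControl, which fixed that direction, so its value is a description. ACTA2, the vascular smooth muscle actin, was higher, with 0.517, 0.826 and 0.885 CPM in shCK5 and 0.134, 0.176 and 0.139 CPM in shControl (log2 fold change 2.29, SE 0.369, adjusted p = 3.61e-06). It rested on 41 to 64 counts per shCK5 library and 10 to 14 per shControl library, and 30.1% of its exon bases are shared with other genes, namely ACTA2-AS1 and FAS on the other strand. The part of that overlap in its counts was not tested.

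TAGLN fell, while the widely expressed relatives TAGLN2, CNN2 and CNN3 rose, CNN2 not under library-size scaling. CNN1, the smooth muscle calponin, had 0.0252, 0.0262 and 0 CPM in shCK5, against 1.32, 1.08 and 0.739 CPM in shControl. Those shCK5 levels are 2, 2 and 0 counts. The fit gave a log2 fold change of -5.77 (SE 0.531), in a direction that the filter fixed. TAGLN, an actin-binding protein of smooth muscle, had 16.0, 15.2 and 14.3 CPM in shCK5 and 66.9, 69.6 and 65.3 CPM in shControl. It was 4.43-fold lower (log2 fold change -2.15, SE 0.0448, adjusted p = 1.46e-23), and 11.4% of its exon bases are shared with PCSK7. TAGLN2, its relative in non-muscle cells, averaged 582 ± 10.1 CPM in shCK5 and 473 ± 9.34 CPM in shControl, a log2 fold change of 0.30. CNN3 rose to 426 ± 9.02 CPM in shCK5, against 232 ± 3.42 CPM in shControl (log2 fold change 0.88). CNN2 changed least of all members (log2 fold change 0.11, SE 0.0276, adjusted p = 0.00118), and with library-size scaling its sign turned (-0.03). Per length, CNN3 took 65.3% ± 0.466 of the calponin transcripts in shCK5 and 52.3% ± 1.11 in shControl.

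Markers of smooth muscle and myofibroblasts moved in both directions beside these genes, and their part in the results was not tested. Of 14 listed, 10 were tested, of which 5 rose and 4 fell, against 40.9% and 41.7% of all genes tested. The summed level of the list was 178 to 182 CPM in shCK5 and 889 to 920 CPM in shControl. In shCK5 the largest share came from SMTN (106 CPM in shCK5 and 67.6 CPM in shControl) and in shControl from NOTCH3. NOTCH3, which epithelial cells also express, had 27.7 CPM in shCK5 and 823 CPM in shControl. MYH11, the smooth muscle myosin heavy chain, had 1.17 ± 0.0713 CPM in shCK5 and 1.59 ± 0.218 CPM in shControl. DES, which encodes desmin, had 0.0443 CPM in shCK5 and 0.0891 CPM in shControl, and KCNMB1 and PLN were at 0. The pericyte-associated CSPG4 and PDGFRB rose by 3.15 and 3.19 on the log2 scale and HHIP by 3.19, while MCAM fell by 1.21. Of 8 tested striated muscle markers, 7 fell and 1 (TNNT1) rose, beside the same shares over all genes. Among the 7, MYL7 and CKM passed the filter on low counts only through shControl, so their falls were fixed and support nothing. The summed level of that list was 65.6 to 69.9 CPM in shCK5 and 74.4 to 76.4 CPM in shControl. The troponin genes TNNC1 and TNNT2 had log2 fold changes of -4.96 and -4.23. The skeletal actin ACTA1 had 0.253 ± 0.115 CPM in shCK5 and 2.93 ± 0.13 CPM in shControl.

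Among tropomyosins, which coat filaments and set which proteins can bind them, TPM1 fell and the other members rose. TPM1 had 86.7, 85.9 and 87.2 CPM in shCK5, against 559, 595 and 552 CPM in shControl. The groups lay far apart, with a 6.57-fold lower level in shCK5 (log2 fold change -2.72, SE 0.0309, adjusted p = 6.02e-29). TPM4 averaged 973 ± 25.0 CPM in shCK5 and 541 ± 7.72 CPM in shControl, TPM3 781 ± 12.5 CPM in shCK5 and 526 ± 4.52 CPM in shControl, and the much less abundant TPM2 18.5 ± 0.148 CPM in shCK5 and 14.04 ± 0.467 CPM in shControl. Their log2 fold changes were 0.85, 0.57 and 0.40. The family was thus divided differently: per length, TPM1 supplied 3.08% ± 0.0667 of tropomyosin transcripts in shCK5 and 25.4% ± 0.581 in shControl, and TPM4 51.7% ± 0.59 in shCK5 and 36.0% ± 0.214 in shControl. Antisense genes share 21.4% of the exon bases of TPM1, and the strand setting of the counts is not stated.

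**Figure D2:**
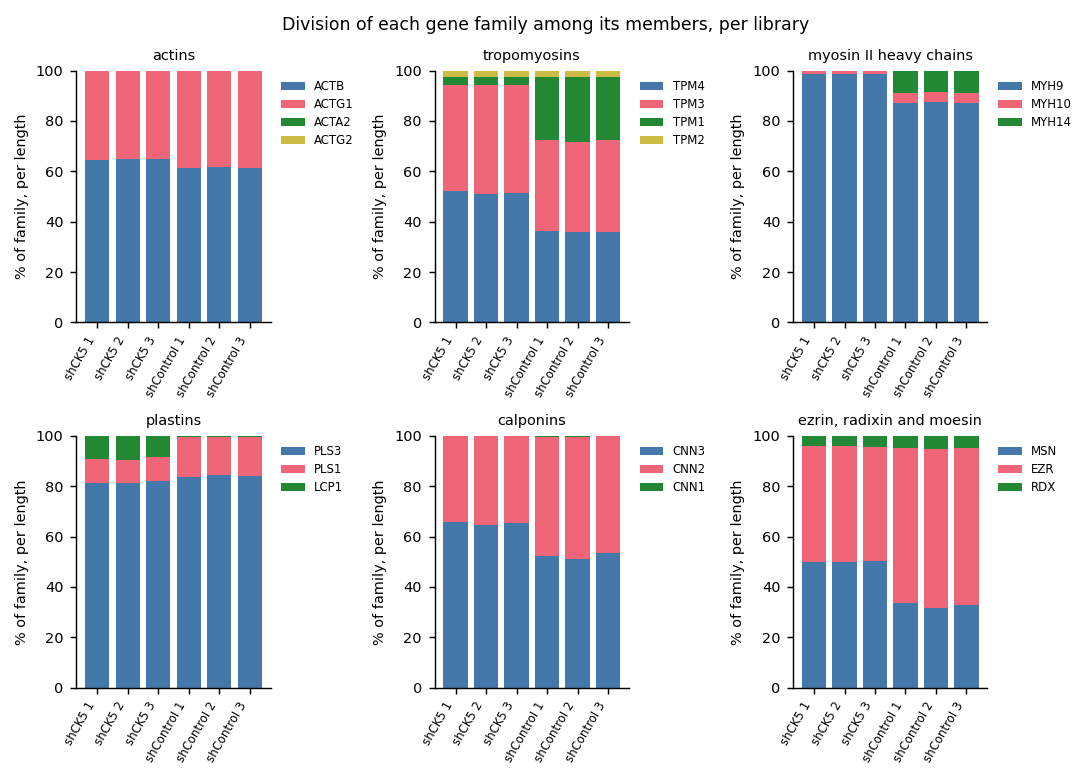
Share of each gene family taken by each member, per library, from CPM divided by exon length. TPM1 (3.08% in shCK5, 25.4% in shControl) and MYH14 (0.228% in shCK5, 8.62% in shControl) take small shares of their families in shCK5, and LCP1 (9.01% in shCK5, 0.522% in shControl) appears among the plastins.

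Myosin II and its regulators were the group in which most tested members fell, 5 of 8, against 41.7% of all genes tested. MYH9, the heavy chain of non-muscle myosin IIA, had 3114, 3150 and 3114 CPM in shCK5, against 1979, 2008 and 1930 CPM in shControl, and rose 1.58-fold (log2 fold change 0.66, SE 0.0246). MYH14, the heavy chain of myosin IIC, which is prominent in polarised epithelia, had 7.99, 9.17 and 7.84 CPM in shCK5 and 228, 223 and 223 CPM in shControl. It was 26.9-fold lower (log2 fold change -4.75, SE 0.0429, adjusted p = 7.68e-31). MYH10, the heavy chain of myosin IIB, had 30.3, 29.4 and 29.9 CPM in shCK5 and 95.6, 90.3 and 92.8 CPM in shControl (log2 fold change -1.64, SE 0.0355). Per length, MYH9 supplied 98.8% ± 0.0075 of these heavy chain transcripts in shCK5 and 87.3% ± 0.307 in shControl.

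The regulatory light chains MYL12A and MYL12B, whose phosphorylation switches non-muscle myosin on, are neighbours on chromosome 18 (3247481 to 3256236 and 3261479 to 3278431, GRCh38) and both fell. MYL12A had 72.6, 73.9 and 73.9 CPM in shCK5, against 245.2, 256 and 249.1 CPM in shControl (log2 fold change -1.77, SE 0.0288, adjusted p = 8.32e-26). MYL12B had 331, 337 and 327 CPM in shCK5 and 679, 727 and 692 CPM in shControl (log2 fold change -1.07, SE 0.0279). The genes encode nearly identical proteins, and how reads that fit both were counted is not stated. The essential light chain MYL6 rose slightly (265 ± 8.28 CPM in shCK5 and 212 ± 2.97 CPM in shControl).

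MYLK, which encodes the kinase of these light chains, rose while the chains fell. It had 114, 117 and 120.0 CPM in shCK5, against 16.3, 17.0 and 16.0 CPM in shControl, a 7.11-fold rise (log2 fold change 2.83, SE 0.038, adjusted p = 1.60e-27). The promoter with a CArG box listed for MYLK lies inside the gene as GENCODE annotates it, so counts over the whole gene do not separate transcripts from that start. CALD1, which encodes caldesmon, an inhibitor of actomyosin, fell to 151 ± 3.09 CPM in shCK5, against 250.3 ± 3.35 CPM in shControl (log2 fold change -0.73, SE 0.0272).

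Filamins and focal adhesion adaptors all rose. FLNC, a filamin best known from muscle (chromosome 7, 128830377 to 128859274, plus strand), showed the widest difference of all members, with 358, 365 and 359 CPM in shCK5, against 1.32, 1.68 and 1.41 CPM in shControl. It was 245-fold higher (log2 fold change 7.93, SE 0.0497, adjusted p = 1.22e-33). FLNA, the main filamin of non-muscle cells, averaged 5066 ± 107 CPM in shCK5 and 3650 ± 87.2 CPM in shControl (log2 fold change 0.47).

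The adaptors that tie integrins to actin rose by similar amounts. TLN1, which encodes talin, had 1013, 1031 and 1030 CPM in shCK5, against 414, 411 and 398 CPM in shControl, with a log2 fold change of 1.33 (SE 0.0255). VCL, which encodes vinculin, had 743, 734 and 722 CPM in shCK5 and 288, 304 and 289 CPM in shControl (1.32, SE 0.0272). PXN, the paxillin gene, had 238, 238 and 231 CPM in shCK5 and 88.0, 84.6 and 84.6 CPM in shControl (1.46, SE 0.0289). The highest adjusted p of the 3 was 1.14e-23, and in each gene the lowest shCK5 value was above the highest shControl value. The groups likewise did not overlap, in either direction, in 92.3% of tested genes with a mean of at least 10 CPM. ZYX, which encodes the tension-sensitive adaptor zyxin, rose less (279 ± 11.2 CPM in shCK5 and 194 ± 3.56 CPM in shControl, log2 fold change 0.52). TPM2 and TLN1 lie close together on chromosome 9, with log2 fold changes of 0.40 and 1.33.

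**Figure D3:**
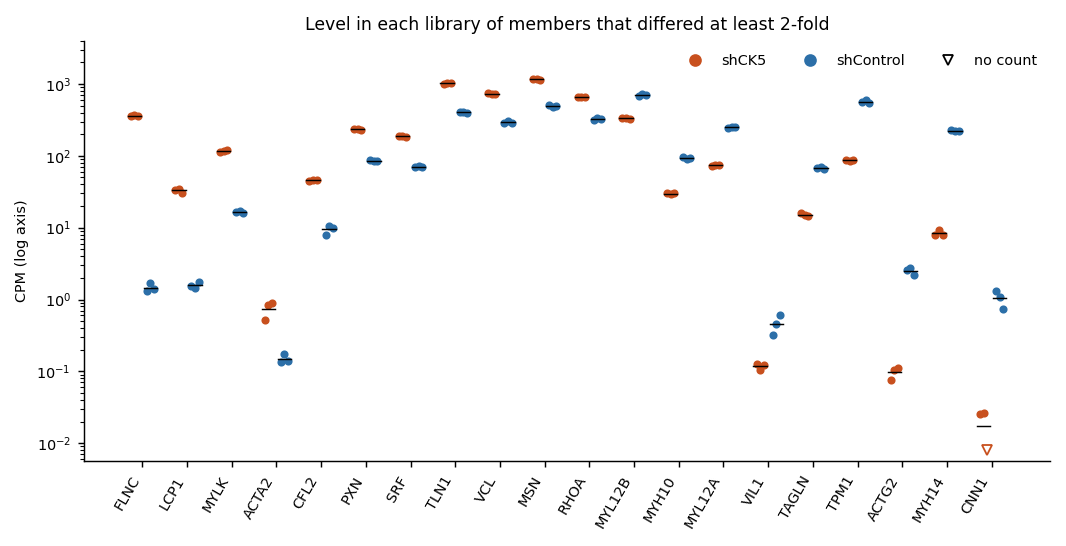
Level of the 20 members that differed at least 2-fold, in each library, as CPM on a log axis; points are libraries, black lines group means, and the open triangle marks a library with no count. Orange shCK5 points and blue shControl points do not overlap in any gene, but the genes were picked by fold, and 84.2% of all genes tested did not overlap. ACTG2, CNN1 and VIL1 passed the filter only through shControl, so their separation supports nothing. FLNC, LCP1 and MYLK are separated most among those that rose.

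Of the crosslinkers, ACTN4 and ACTN1, the non-muscle alpha-actinins, rose to 2336 ± 38.5 and 882 ± 10.3 CPM in shCK5, against 1411 ± 13.7 and 728 ± 15.9 CPM in shControl (log2 fold changes 0.73 and 0.28). CAPN12 on the other strand shares 14.2% of the exon bases of ACTN4. FSCN1, which encodes fascin, the bundler of filopodia, rose to 83.0 ± 1.32 CPM in shCK5, against 63.5 ± 4.31 CPM in shControl (log2 fold change 0.38).

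The plastins, which bundle filaments in microvilli and in leukocytes, went in different directions. LCP1, the leukocyte form that many carcinomas also express, had 33.6, 34.6 and 30.7 CPM in shCK5, against 1.56, 1.43 and 1.73 CPM in shControl. It rose 21.0-fold (log2 fold change 4.39, SE 0.0796, adjusted p = 7.46e-25). PLS3, the widespread form, averaged 242 ± 2.93 CPM in shCK5 and 206 ± 13.5 CPM in shControl, and PLS1, the intestinal form, 36.3 ± 1.61 CPM in shCK5 and 48.6 ± 2.19 CPM in shControl (log2 fold changes 0.23 and -0.42). Per length, LCP1 took 9.01% ± 0.625 of plastin transcripts in shCK5 and 0.522% ± 0.071 in shControl, and PLS3 81.5% ± 0.47 in shCK5 and 84.1% ± 0.316 in shControl.

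Leukocyte markers were read beside LCP1, and their part in its rise was not tested. Of 12 listed, 6 were tested, of which 1 rose and 4 fell, against 40.9% and 41.7% of all genes tested. The summed level of the list was 33.5 to 35.0 CPM in shCK5 and 21.0 to 22.3 CPM in shControl. PTPRC, the leukocyte common antigen, was at 0.0623 CPM in shCK5 and 0.697 CPM in shControl, and MS4A1 and CD68 were at 0. PTPRC passed the filter only through shControl, so its fall, 1 of the 4, was fixed. The marker that rose was LAPTM5, at 30.6 ± 0.601 CPM in shCK5 and 0.774 ± 0.27 CPM in shControl. CORO1A, a leukocyte coronin, fell to 1.76 ± 0.126 CPM in shCK5, against 13.8 ± 1.57 CPM in shControl, and CD14 fell by 2.65 on the log2 scale. VIL1, the villin of intestinal microvilli, was hardly detected, with 0.126, 0.105 and 0.124 CPM in shCK5 and 0.322, 0.451 and 0.613 CPM in shControl (log2 fold change -1.95, SE 0.421), again in a direction that the filter fixed. Of its exon bases, 44% are shared with USP37 on the other strand.

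Ezrin, radixin and moesin link actin to the plasma membrane, ezrin mainly in epithelia. MSN, which encodes moesin, had 1185, 1164 and 1154 CPM in shCK5, against 510, 479 and 501 CPM in shControl, a 2.35-fold rise (log2 fold change 1.23, SE 0.027, adjusted p = 3.94e-23). EZR averaged 594 ± 14.3 CPM in shCK5 and 529 ± 4.11 CPM in shControl (log2 fold change 0.17, adjusted p = 1.62e-06). With library-size scaling EZR was at 0.03 and did not pass (adjusted p = 0.247). RDX rose to 139 ± 1.04 CPM in shCK5, against 106 ± 3.34 CPM in shControl. Per length, moesin made up 50.2% ± 0.22 of the family in shCK5 and 32.8% ± 0.875 in shControl, and ezrin 45.6% ± 0.319 in shCK5 and 62.4% ± 0.721 in shControl, so that the order of the pair was reversed.

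Filament turnover genes were split. CFL2, the cofilin of muscle, had 44.6, 45.9 and 46.3 CPM in shCK5, against 8.03, 10.5 and 9.98 CPM in shControl, and rose 4.80-fold (log2 fold change 2.26, SE 0.0631, adjusted p = 6.31e-21). DSTN, which encodes the related severing protein destrin, fell to 286 ± 8.4 CPM in shCK5, against 346 ± 15.8 CPM in shControl (log2 fold change -0.27). PFN1, which encodes the main profilin, a supplier of actin monomers, rose to 889 ± 27.5 CPM in shCK5, against 475 ± 11.7 CPM in shControl (log2 fold change 0.91). PFN2, prominent in neurons, fell to 10.5 ± 0.249 CPM in shCK5, against 17.4 ± 0.31 CPM in shControl (log2 fold change -0.73). Rows named as PFN1 pseudogenes held 1.49% as many counts as PFN1.

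RHOA, RHOB, RHOC and SRF all rose. RHOA, the main switch of stress fibre assembly, had 659, 669 and 670 CPM in shCK5, against 317, 332 and 327 CPM in shControl (log2 fold change 1.03, SE 0.0258, adjusted p = 6.44e-22). RHOC and RHOB had log2 fold changes of 0.74 and 0.38. SRF had 188, 191 and 182 CPM in shCK5 and 70.7, 71.8 and 70.6 CPM in shControl, a 2.63-fold rise (log2 fold change 1.40, SE 0.0295, adjusted p = 1.86e-23). Its cofactor genes went the other way. MKL1 (also named MRTFA) averaged 53.0 ± 0.589 CPM in shCK5 and 108 ± 1.83 CPM in shControl, and MKL2 (MRTFB) 38.8 CPM in shCK5 and 65.3 CPM in shControl. MYOCD, the smooth muscle cofactor, had 0.00874 CPM in shCK5 and no count in shControl.

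The other genes of SRF biology were mixed as well. Of 15 cofactors and targets outside the members, 12 were tested, 6 rose and 5 fell (median log2 fold change 0.07). Among the 6, TAGLN3 passed the filter on low counts only through shCK5, so its rise was fixed. Rises and falls made up 40.9% and 41.7% of all genes tested. CYR61 and CTGF, secreted matricellular proteins that SRF and YAP both drive, rose to 1276 ± 54.0 and 194 ± 2.77 CPM in shCK5, against 162 ± 2.11 and 58.2 ± 7.32 CPM in shControl. MYOF, which encodes myoferlin, rose by 0.99 on the log2 scale, and FHL2, a LIM-domain cofactor, fell by 1.86.

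Filament nucleation genes were read against the 40.9% of all tested genes, or 52.4% of those with at least 10 CPM, that were higher in shCK5. Of 7 tested subunits of the Arp2/3 complex, which starts branched filaments, 6 rose, among them ACTR2 (376 ± 3.1 CPM in shCK5 and 233 ± 11.7 CPM in shControl) and ARPC5 (266 ± 2.92 CPM in shCK5 and 166 ± 5.77 CPM in shControl). ARPC3 also rose, by 0.61, but was at 1.30 CPM in shCK5 and 0.85 CPM in shControl. ARPC2 did not pass (348 CPM in shCK5 and 355 CPM in shControl, adjusted p = 0.284). Of 12 tested formins, which start unbranched filaments, 8 rose and 4 fell. FMNL1 had 107 ± 2.04 CPM in shCK5 and 3.56 ± 0.205 CPM in shControl, and FHOD3 39.95 ± 1.87 CPM in shCK5 and 0.743 ± 0.232 CPM in shControl. FMN1 rose by 2.00 on the log2 scale, whereas DAAM1, DAAM2 and FHOD1 fell (-2.61, -2.14 and -0.58). Of 13 tested WASP and WAVE genes, which activate Arp2/3, 11 rose and 2 fell. Among those with a mean of at least 1 CPM, WASF3 had the highest fold change, with 11.7 ± 0.823 CPM in shCK5, against 0.118 ± 0.0923 CPM in shControl, followed by WAS and BRK1 (log2 fold changes of 6.65, 1.78 and 1.15 for the 3), and ABI2 and WASF1 fell (-0.58 and -0.46). The median log2 fold changes of the 3 lists were 0.50, 0.62 and 0.60, against -0.02 for all genes and 0.15 for those of at least 10 CPM. Below 1 CPM, CYFIP2 had 0.667 CPM in shCK5 and no count in shControl. It passed the filter on low counts only through shCK5, so its rise, 1 of the 11, was fixed.

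Regulators of cofilin were split. The LIM kinases, which inactivate cofilin, moved apart, since LIMK1 had 243 ± 4.4 CPM in shCK5 and 25.8 ± 1.02 CPM in shControl, and LIMK2 21.6 ± 0.62 CPM in shCK5 and 103 ± 3.33 CPM in shControl. The slingshot phosphatases, which reactivate cofilin, were also split. SSH1, the most abundant of them, had 151 ± 1.02 CPM in shCK5 and 61.9 ± 1.34 CPM in shControl (log2 fold change 1.29), SSH2 rose by 1.72 on the log2 scale, and SSH3 had a log2 fold change of -2.34. RAC2 rose by 2.46 on the log2 scale, and RND3, an antagonist of RHOA, fell by 0.75.

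Among 25 tested genes for capping, severing and crosslinking, 14 were higher and 11 lower (median 0.17). The shares over all genes tested were 40.9% higher and 41.7% lower, and 52.4% and 39.2% among those of at least 10 CPM. CAPG and CORO1C rose by 1.82 and 1.45 on the log2 scale, while the pointed-end capping gene TMOD1 fell to 0.522 ± 0.135 CPM in shCK5, against 15.2 ± 0.958 CPM in shControl, and VILL, a villin relative, fell by 2.10. Outside the members, 32 focal adhesion genes were tested, of which 20 were higher and 9 lower (median 0.59), beside the same shares over all genes. TGFB1I1, a paxillin relative also named HIC-5, had 51.9 ± 2.63 CPM in shCK5 and 0.51 ± 0.16 CPM in shControl. TNS1, which encodes tensin, had 0.667 ± 0.166 CPM in shCK5 and 67.8 ± 1.49 CPM in shControl. NEXN and ILK rose by 2.25 and 1.78, ILK at 2.09 CPM in shCK5 and 0.606 CPM in shControl, and TNS3 fell by 0.81.

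**Figure D4:**
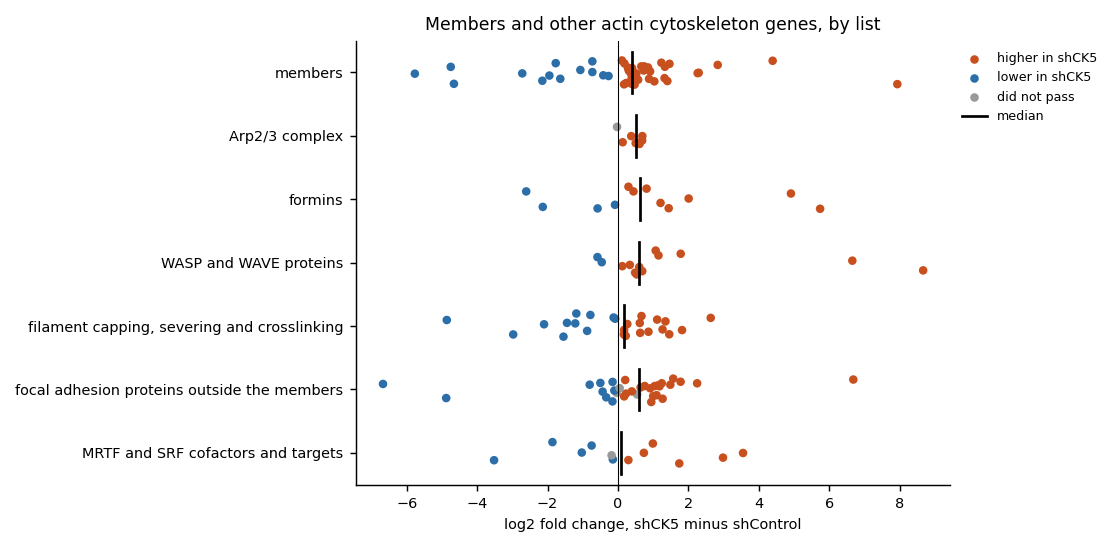
Log2 fold change, shCK5 minus shControl, of the members and of each gene in 6 lists of other actin cytoskeleton genes; points are genes, coloured by call, and black bars are list medians. Medians lie between 0.07 and 0.62, each list except Arp2/3 holds called genes on both sides of 0, and the point furthest right among WASP and WAVE genes, CYFIP2, had no shControl count, so its position depends on the prior count of the fit.

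Of 10 fibroblast markers, 3 were tested, and their part in the results was not tested. FN1 rose to 214 ± 5.41 CPM in shCK5, against 50.5 ± 1.7 CPM in shControl, while COL1A1 and FAP fell (-0.56 and -4.56 on the log2 scale). Their summed level was 218 to 229 CPM in shCK5 and 67.5 to 71.4 CPM in shControl. COL1A1 had 8.70 CPM in shCK5 and 12.9 CPM in shControl, and DCN, which encodes decorin, was at 0 CPM in shCK5 and 0.00895 CPM in shControl.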

How the data were processed

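RNA sequencing libraries from 2 groups of 3 were compared. The table deposited by the authors holds unnormalised counts, 1 row per gene name. Per the submitters' processing notes, cutadapt, STAR, SAMtools and Cufflinks were used with the build GRCh38; for the counting program, strand setting and annotation, nothing was stated in those sources. Reads from overlapping, antisense or near-identical genes may therefore be shared or dropped.

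Columns were assigned by name to samples, and groups taken from titles. Under R 4.3.3, edgeR 4.0.16 removed low rows by its filterByExpr rule (about 0.132 CPM, or 10 counts, in at least 3 libraries). Libraries were scaled with TMM factors (0.95 to 0.959 in shCK5 and 1.04 to 1.06 in shControl). Genes were tested with edgeR's quasi-likelihood test, adjusted by Benjamini-Hochberg over 19567 genes. Levels are CPM over TMM-scaled library sizes, as mean ± SD of 3 libraries. SE is that of the fit. Shares within a family divide CPM by the union of exons in GENCODE v29 (GRCh38) and may differ from the annotation behind the counts. DESeq2 1.42.0, other filters and scaling, a replicate block and leaving out each library were alternatives. The code was tested on simulated data in which few genes differed. In these data 82.7% of genes passed, so that test does not bear on the scaling used here.

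The members and lists were chosen with earlier results of these data known, so counts over them are descriptions. Per-library values are given for members past an adjusted p of 0.05 that differed at least 2-fold or were under 1 CPM in a group, and for ACTB, ACTG1 and MYH9. In other lists the up to 3 highest and 3 lowest called genes with a mean of at least 1 CPM are named; further genes named from lists were chosen after their values were seen, except markers used as checks. Some genes that the rule names, and 1 list, are not reported here.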

Additional observations from a re-analysis of the deposited data

How the results depend on the processing

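The members called higher and lower numbered 32 and 13 under DESeq2, without a filter, and with the replicate block. Leaving out each library in turn also gave 32 and 13. A filter of 1 CPM in 3 libraries left 42 members, 31 higher and 11 lower. With library size alone 29 rose and 13 fell: the log2 fold change of CNN2 was reversed at -0.031, and ACTG1 and EZR no longer passed, which follows the lower median of all genes under that scaling. Same-numbered libraries did not deviate together over all tested genes (correlations of 5.75e-05, -0.0105 and -0.00452). With 3 libraries per group, these values show no pairing by replicate number but cannot exclude it. Leaving out 1 library moved no member's fold by 1.5 times or more; the largest shift was for CNN1, at -5.25 without shCK5 replicate 3. Among marker and pathway lists, whose alternatives were chosen after seeing the data, Arp2/3 genes called lower numbered 1 with library size alone and with the 1 CPM filter. Without a filter, 2 fibroblast markers rose and 4 fell, and leaving out 1 library gave 2 to 4 that fell (4 without shCK5 replicate 1, 2 or 3). With the 1 CPM filter, 4 striated muscle and 2 leukocyte markers fell. Dividing by the longest transcript in place of the exon union changed the level of the shares but not which group was higher: in shCK5 and shControl, TPM1 took 4.05% and 31.4%, TPM4 58.0% and 38.1%, PLS3 80.4% and 82.5%, MYH14 0.288% and 10.6%, ACTB 68.4% and 65.2%, CNN3 60.5% and 47.2%, and moesin 57.1% and 39.3% of their families. Under that length the calponin order in shControl turned, with CNN3 under 50%. Counts of CNN1, ACTG2, VIL1 and ACTA2 limit those folds most.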
